A study of Saccharomyces cerevisiae with 4 samples.

Results

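The whole cell extract DNA of 4 yeast libraries was compared here, with the Nup157 library set against the 3 Nup170 libraries. Whole cell extract is total sheared DNA taken before immunoprecipitation, and it was labelled with Cy3 on the same arrays on which the ChIP DNA was labelled with Cy5. Its signal therefore depends in part on how much of a sequence the cells carried. Small differences between libraries also ran with signal level, as given below. All 4 libraries of the series entered, through 8 readings of the Cy3 channel, and 41492 of 41775 probe positions were measured in all 4.

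Both proteins are paralogous scaffold subunits of the nuclear pore complex, the channel that joins nucleus and cytoplasm, and each carried 9 copies of the Myc epitope at its own gene. The groups were Nup157 in a strain labelled wild type (YWY953, NUP157-9xMYC::hphR), Nup170 in a strain labelled wild type (YWY655, NUP170-9xMYC::hphR), Nup170 in a strain labelled sir4∆ (YWY1501, the same tag with sir4∆::natR) and Nup170 in a strain labelled yku70∆ (YWY1502, the same tag with yku70∆::natR). According to the labels all 4 strains were MATa and carried his3∆1, leu2∆0, ura3∆0 and lys2∆0, and no label names MET15. Cultures in YPD, a rich medium, were held at 30 °C, taken at an optical density of 1 and cross-linked with 1% formaldehyde for 1 h before shearing to about 400 bp. Each group was 1 library, read in 2 hybridisations that the labels do not tie to separate cultures. No difference below therefore has a replicate check or a p-value, the number of arrays limits the precision, and the protein, its strain and its library cannot be told apart.

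Laboratory yeast strains are kept apart by auxotrophic markers, which are biosynthetic genes deleted so that a strain grows only when the missing nutrient is supplied. In the widely used S288C-derived pair of deletion-collection parents, the MATa parent lacks MET15 and keeps LYS2, and the MATalpha parent lacks LYS2 and keeps MET15. Mating type is set by the sequence at the MAT locus, and silent copies of the a-type and alpha-type sequences lie at HMR and HML on the same chromosome. A MATa haploid thus holds a-type sequence at MAT and at HMR, whereas a MATalpha haploid holds it at HMR alone.

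A probe was called at blank level in a reading when its foreground intensity did not exceed the mean of 660 blank spots plus 2.6 SDs. The median foreground lay 5.23 to 6.59 times above the blank mean across the 8 readings, and 99% or more of positions passed in each. Correlations of centred log2 signal over positions, which share probe sequence and hence much of their level, were 0.85 to 0.93 between Nup157 and Nup170 readings and 0.93 to 0.97 between Nup170 libraries. The 2 readings of the Nup157 library correlated at 0.88, and those of each Nup170 library at 0.95 to 0.96. The data went against several labels, as the values below show: LYS2 was read in the 3 Nup170 libraries, SIR4 and YKU70 were read in the libraries labelled as lacking them, and a-type sequence was lower in the Nup157 library. The libraries are therefore called by their labels throughout.

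LYS2 and MET15 were the genes at blank level in some libraries and not in others. LYS2 was missing from the Nup157 library and present in every Nup170 library, and MET15 was the reverse. Among 5034 genes with at least 2 probes in the open reading frame these were the 2 genes so called, or 0.0397%. The positions give the same picture. Of 41480 nuclear positions, 41273 were above blank in all 8 readings and 96 at blank in all 8. Exactly 16 were at blank with Nup157 and above it in all 6 Nup170 readings, and all 16 lay in LYS2. Exactly 6 were above blank with Nup157 and at blank in all 6 Nup170 readings, and all 6 were annotated to MET15.

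LYS2 (YBR115C) encodes alpha-aminoadipate reductase, an enzyme of lysine synthesis. Its 16 probes start between positions 469818 and 473848 of chromosome 2, as the deposited files number it, and all lie in the open reading frame. No source used here names the genome build. In the Nup157 library none of the 32 readings was above blank, with foreground from 3296 through a median of 5044 to 7968. In the Nup170 wild-type library 32 of 32 readings were above blank, with foreground from 19018 through 27805 to 39853. The library labelled sir4∆ ran from 21509 through 30375 to 39364, and the library labelled yku70∆ from 19229 through 30469 to 40998, each with 32 of 32 above blank. The lowest Nup170 reading was thus above the highest Nup157 reading.

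On the scale of log2 normalised signal centred on the median of each hybridisation, LYS2 averaged -3.42 in the Nup157 library, where every value was set to the detection floor. It averaged -0.07 in the Nup170 wild-type library, -0.02 in the library labelled sir4∆ and -0.05 in the library labelled yku70∆, close to the median position of the genome. Against this floor, the lowest normalised signal among probes above blank in each hybridisation, LYS2 was at least 10.4-fold lower in the Nup157 library. The bound was 12.4-fold in the first hybridisation and 8.67-fold in the second. Its size depends on the signal and the floor: the log2 difference of -3.37 became -2.09 on raw foreground minus background and -2.50 with blank level set at 5 SDs above the blank mean. The ChIP channel of the same libraries gave a bound of 11.1-fold in the same direction.

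The edges of the missing stretch were close to the gene. The probe at -450 bp from the LYS2 start was at -0.39 in the Nup157 library, against -0.06, -0.16 and -0.03 in the Nup170 libraries labelled wild type, sir4∆ and yku70∆. The next probe, 4 bp inside the gene, was at the floor with Nup157. At the other end, the last LYS2 probe lies 4034 bp from the start and was also at the floor. The following probe, at 4252 bp and annotated downstream of RAD16, was dim in every library, with centred values from -3.53 to -3.18, and carries no information on the edge. RAD16, a nucleotide excision repair gene, was read again at 4626 bp, at 0.22 in the Nup157 library and 0.30 to 0.42 in the Nup170 libraries.

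MET15 (YLR303W, listed as MET17 in the RefSeq table) encodes O-acetylhomoserine sulfhydrylase, which builds homocysteine from sulfide. It has 3 probes in the open reading frame, starting between positions 732897 and 733708 of chromosome 12. Foreground in the Nup157 library ran from 38342 through 43854 to 44962, with 6 of 6 readings above blank. It ran from 4533 to 4992 in the Nup170 wild-type library, from 4915 to 5387 in the library labelled sir4∆ and from 5107 to 5499 in the library labelled yku70∆, with 0 of 6 readings above blank in each. MET15 was thus read in the Nup157 library and in no Nup170 library.

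The centred mean was 0.15 in the Nup157 library, against floor values of -3.43, -3.53 and -3.49 in the Nup170 libraries labelled wild type, sir4∆ and yku70∆. Against the same floor, MET15 was at least 12.4-fold higher in the Nup157 library, with bounds of 13.2-fold and 11.6-fold in the first and second hybridisations and 14.2-fold in the ChIP channel, where 1 of 6 readings in the library labelled sir4∆ was above blank. Its log2 difference of 3.63 became 2.20 on raw foreground minus background and 2.73 with blank level at 5 SDs. The stretch missing from the Nup170 libraries was longer than the gene. It took in the probes at -35, 1546 and 1922 bp from the start, and over all 6 probes the bound was 11.3-fold. Outside it, the probe at -476 bp was at -1.49 in the Nup157 library and at -1.62 to -1.31 in the Nup170 libraries. The probe at 2183 bp, downstream of the aconitase gene ACO1, was at -0.38 in the Nup157 library and at -0.08 to 0.05 in the Nup170 libraries.

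**Figure D1:**
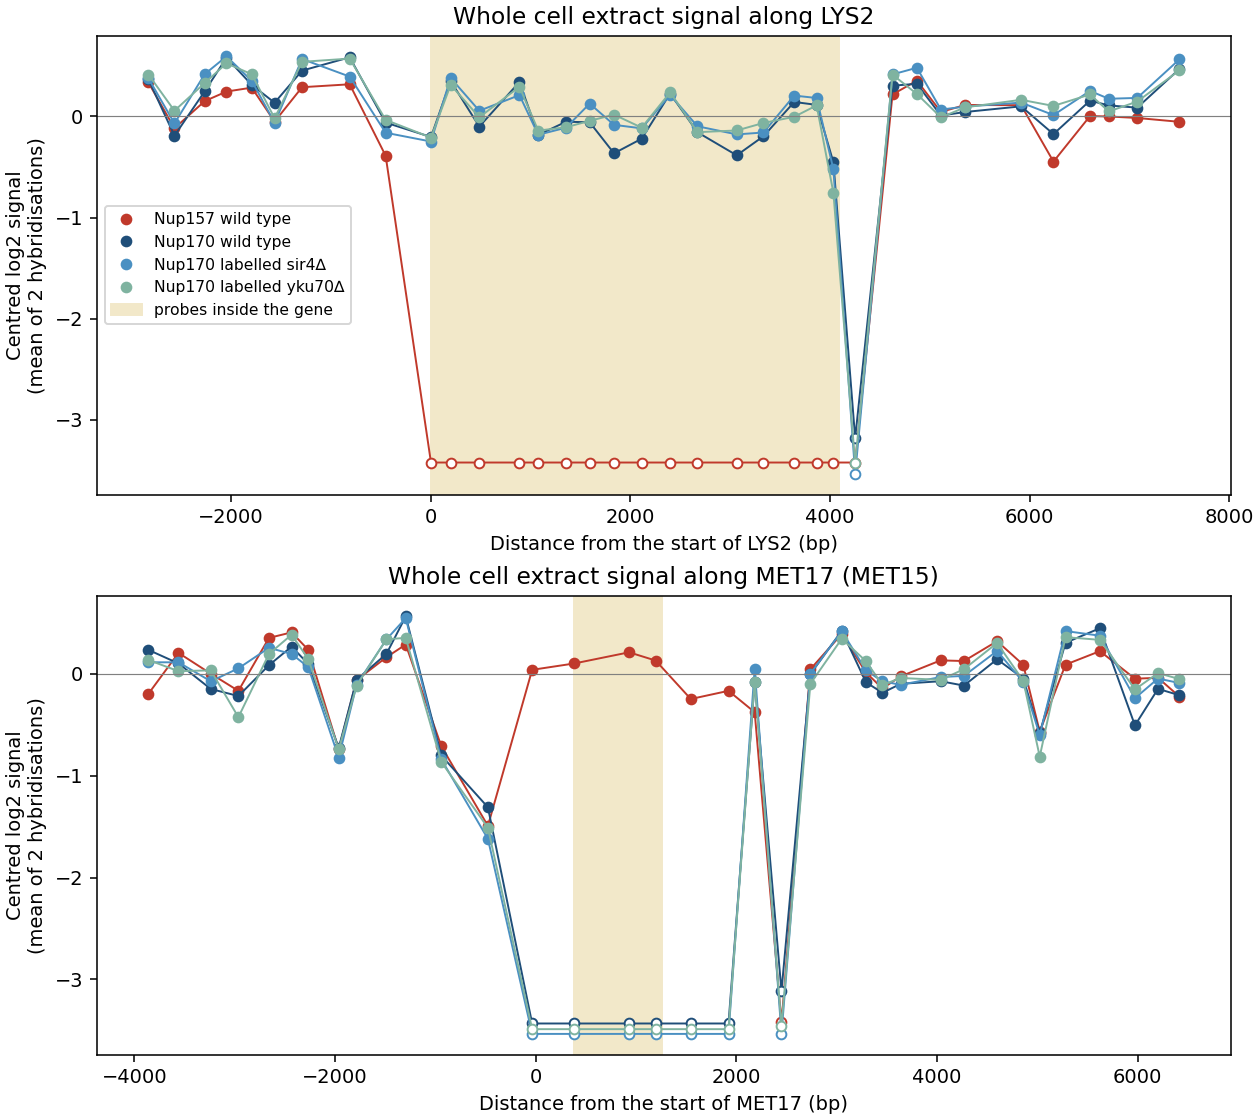
Centred log2 whole cell extract signal, the mean of 2 hybridisations, against distance in bp from the start of LYS2 (upper panel) and MET17, the MET15 gene (lower panel); open circles mark probes at blank level in at least 1 reading and shading the probes inside the gene. The Nup157 library is at the floor of -3.42 along LYS2 and at 0.10 to 0.21 inside MET17, where the Nup170 libraries lie at -3.53 to -3.43.

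The other labelled marker deletions did not separate the libraries. LEU2, a leucine synthesis gene, was at blank level in all 4 libraries at its 4 probes, as was URA3, a uracil synthesis gene, at its 4. LEU2 foreground ran from 4911 to 6819 in the Nup157 library and from 3415 to 6211 across the Nup170 libraries. URA3 foreground ran from 5447 to 7576 in the Nup157 library and from 4371 to 6620 across the Nup170 libraries. HIS3, a histidine synthesis gene, has 2 probes. The one 50 bp into the gene was above blank in all libraries, at -0.07 with Nup157 and 0.01 to 0.17 with Nup170, and the one at 478 bp was at blank in all readings. The his3∆1 allele is a partial deletion.

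Positions at blank level in every reading also fell into runs. There were 5 nuclear runs of at least 2 neighbouring probes, holding 24 of the 96 shared positions. LEU2 and URA3 made up 2 of them. The longest was 11 probes from position 148727 to 151480 of chromosome 3, annotated to SRD1 and MAK32, and the next SRD1 probe, at position 148437, was above blank in all 8 readings. VBA3 and COS12, near the ends of chromosomes 3 and 7, accounted for 2 probes each.

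The biosynthetic pathways around both genes were otherwise level. Of 9 lysine pathway genes measured, 5 were below 0 and 4 above, with a median difference of -0.04 against 0.01 over 5491 genes with at least 1 usable probe. LYS2 apart, where 1 probe passed the exclusion marks, they ran from -0.21 at LYS20, a homocitrate synthase, to 0.15 at LYS9, saccharopine dehydrogenase. LYS4, homoaconitase, was at -0.18, and LYS1 and LYS21 at -0.08 and -0.04. LYS5, LYS12 and LYS14, the last a transcription activator of the pathway, were at 0.02, 0.03 and 0.07. Of 9 sulfur amino acid genes, 8 had usable probes and MET15 had none. They ran from -0.07 at MET2 to 0.15 at MET14, with 3 below 0, 5 above and a median of 0.03. MET16 and MET10 were at -0.05 and -0.01, MET6 and MET3 at 0.02 and 0.03, and MET5 and MET22 at 0.05 and 0.10.

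MET15 apart, the listed markers that the labels do not give as deleted were above blank in every library at all readings. TRP1, of tryptophan synthesis, differed by -0.14 and ADE2, of adenine synthesis, by 0.01. The permease genes CAN1 and LYP1, for arginine and lysine uptake, differed by 0.13 and 0.09. None approached the size of the LYS2 and MET15 differences.

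The a-type sequence was lower in the Nup157 library at 3 neighbouring probes. The array reads it at HMR through these probes, starting at positions 293703, 293930 and 294177 of chromosome 3, of which 2 lie in HMRA1, the silent copy of the gene for the a1 repressor subunit, and the first in its divergent promoter. These averaged -0.96 in the Nup157 library, against -0.09 in the Nup170 wild-type library, -0.18 in the library labelled sir4∆ and -0.20 in the library labelled yku70∆. The Nup157 value lay below every Nup170 value at each of the 3 probes. The difference was -0.80, or 57.3% of the Nup170 signal, with -0.81 in the first hybridisation and -0.80 in the second.

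The probes differed by -0.69, -1.10 and -0.63 in the order of their positions. The middle one, 132 bp into HMRA1, was at -1.59 in the Nup157 library and at -0.37, -0.53 and -0.60 in the Nup170 libraries labelled wild type, sir4∆ and yku70∆. Of the 41492 measured positions, 18 differed by -0.6 or lower. The middle probe was 1 of the 2 below -1, and the other was the 1 LYS2 probe that passed the exclusion marks. All readings of the 3 probes were above blank, 6 of 6 in each library, so the sequence was reduced and not at blank level in the Nup157 library.

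The neighbouring sequence did not share this drop. Of 18 probes within 3000 bp on either side, 17 were above 0, with a median difference of 0.24 and a range of -0.15 to 0.61. The 4 probes downstream of HMLALPHA1, at the other silent locus, differed by 0.30 to 0.38. BUD5 and TAF2, the genes on either side of MAT, had 27 annotated probes with a median of 0.11. No probe lay inside HMLALPHA1, HMLALPHA2, MATALPHA1, MATALPHA2, HMRA2, MATA1 or MATA2, so the alpha-type sequence itself was not measured. HO, the endonuclease gene of mating-type switching, differed by 0.07 over 7 probes.

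The ChIP channel was lower in the Nup157 library at the 3 a-type probes, with a mean difference of -1.32, and at 16 of the 18 neighbours, with a median of -0.68 over all 18. At LYS2, MET15 and the a-type probes the channels moved in the same direction, and at most HMR neighbours they moved in opposite directions.

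**Figure D2:**
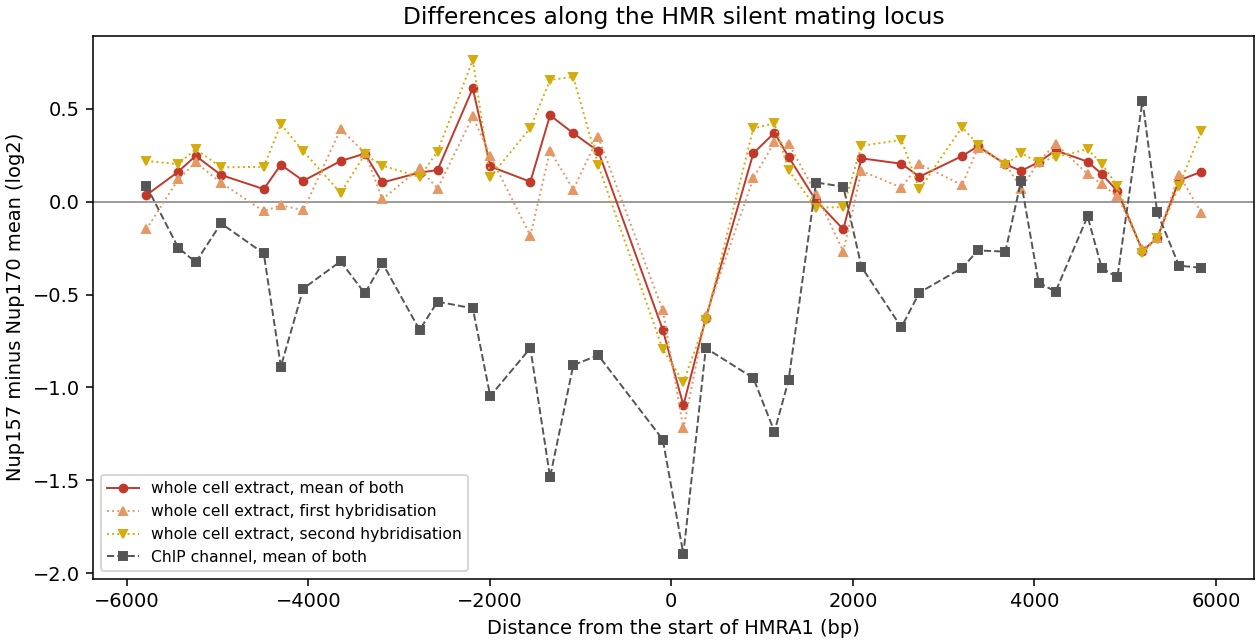
Nup157 minus the mean of the 3 Nup170 libraries on the log2 scale against distance in bp from the start of HMRA1, for whole cell extract (mean, first and second hybridisation) and for the ChIP channel. The whole cell extract drops at 3 probes, to -0.69, -1.10 and -0.63, in both hybridisations, while 17 of the 18 probes within 3000 bp lie above 0.

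NUP157, NUP170, SIR4 and YKU70 were above blank at all probes in all libraries. NUP157 averaged -0.05 in the Nup157 library and -0.16 to -0.13 in the Nup170 libraries, over 14 probes. NUP170 averaged 0.02 in the Nup157 library and -0.12 to -0.09 in the Nup170 libraries, over 16 probes. SIR4, a silencing protein gene, averaged -0.02 in the Nup157 library, -0.05 in the Nup170 wild-type library, -0.59 in the library labelled sir4∆ and -0.04 in the library labelled yku70∆. Its difference of 0.21 over 15 probes became 0.03 when the library labelled sir4∆ was left out. YKU70, a subunit of the Ku complex, averaged -0.08 in the Nup157 library and -0.22 to -0.17 in the Nup170 libraries, with the library labelled yku70∆ lowest. The SIR4 value of the library labelled sir4∆ was reduced but above blank in 30 of 30 readings.

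No chromosome differed as a whole. The median difference of the 16 nuclear chromosomes ran from -0.0038 to 0.0467. Each library's own chromosome medians stayed between -0.0599 and 0.0547. Over 41083 windows of 20 neighbouring probes, the median difference was lowest at -0.27, from position 129523 to 133954 of chromosome 1 at CYS3, a cysteine synthesis gene. It was highest at 0.29, from position 876 to 8805 of chromosome 7 at COS12. LYS2 has too few unexcluded probes to appear in these windows.

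The mitochondrial genome did not set the Nup157 library apart. Of its 295 positions, 218 were at blank level in all 8 readings and 62 above it in all 8. Over those 62, the median centred signal was -0.28 in the Nup157 library, -0.15 in the Nup170 wild-type library, -0.40 in the library labelled sir4∆ and -0.44 in the library labelled yku70∆. The Nup157 value lay inside the Nup170 range. Readings of 1 library differed as much, with -0.01 and -0.27 in the Nup170 wild-type library. By the rule used for all positions, the 105 unexcluded mitochondrial positions had a median difference of 0.063, and -0.044 in the first hybridisation alone. Of these, 29 were at the floor in all 8 readings, where the difference is that between the floors and equals 0.063, so this median holds no measured difference. The other 76 had a median of 0.10. Of 9 mitochondrial genes in the list, 7 had usable probes. VAR1, a ribosomal protein gene, was at blank level in every reading and has no measured difference. SCEI, the gene of the homing endonuclease I-SceI, was at 0.15. COX1, COX3, COB, ATP6 and OLI1, for subunits of the respiratory chain and ATP synthase, were between 0.09 and 0.14. Of these, ATP6, COB and COX1 were lower with Nup157 than in the Nup170 wild-type library, ATP6 for example at -0.12 with Nup157 and 0.05 there.

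Repeated families were measured only in part. Of 60 tandem or multicopy genes, 16 had a usable probe in the open reading frame. All were COS, FLO or ENA genes, and none of the YRF1, PAU, CUP1 and ASP3 members or TAR1 had one. These 16 had a median difference of 0.02, with 5 below 0 and 11 above. The FLO genes, which encode cell wall flocculins together with their activator FLO8, ran from -0.06 at FLO8 to 0.08 at FLO5. The sodium pump genes ENA1 and ENA5 were at -0.07 and -0.19. The COS genes other than COS12 lay between -0.01 and 0.04. None of 4 genes of the 2-micron plasmid had a probe. Of 8 core histone genes, 5 had 1 usable probe each, all at 0 or above, from 0.00 at HHT1 to 0.22 at HTA2 with a median of 0.20. HTA1, HTB2 and HHT2 were at 0.12, 0.20 and 0.21. The median over 5491 genes with at least 1 usable probe was 0.01, and 1 probe per histone gene limits these values.

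Chromosome ends were slightly higher in the Nup157 library. The outermost 20 kb had a median difference of 0.070 over 1774 positions, with 0.041 in the first hybridisation and 0.087 in the second. The outermost 5 kb had a median of 0.12 over 353 positions, with 0.12 in each hybridisation, and a ChIP-channel difference of -0.14. The centred medians there were -0.16 in the Nup157 library, -0.34 in the Nup170 wild-type library, -0.21 in the library labelled sir4∆ and -0.30 in the library labelled yku70∆, so the distance to the nearest Nup170 library was smaller than the spread among the Nup170 libraries. Beyond 30 kb from the ends the medians were 0.0046 to 0.0215. Of 32 chromosome ends, 31 had a median above 0 in the outermost 5 kb and 23 had one above 0 in both hybridisations. Of the 32 ends, 26 had 5 or more positions there, and each end of chromosome 12 had 1. The median over all genes with at least 3 probes was also above 0, at 0.018. Ends are dim regions, and the difference also ran with signal level. It was 0.09 in the dimmest 20% of positions and -0.05 in the brightest 20%. In the first hybridisation the same classes were at 0.01 and -0.02, and in the second at 0.16 and -0.08. With the trend removed, the outermost 20 kb were at 0.037.

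**Figure D3:**
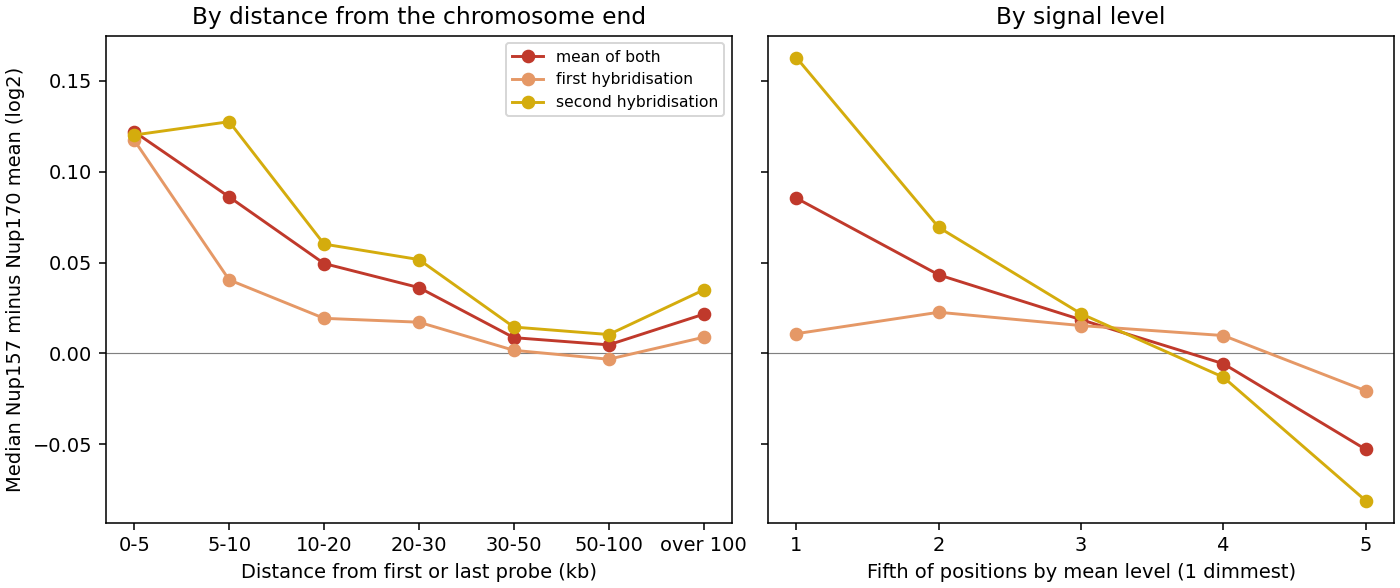
Median difference, Nup157 minus the mean of the Nup170 libraries on the log2 scale, by distance in kb from the first or last probe of a chromosome (left) and by mean signal, in 5 equal classes of positions (right), for each hybridisation and their mean. The outermost 5 kb lie near 0.12 in both hybridisations, while the trend with level, 0.16 to -0.08, is that of the second.

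Gene by gene, little differed beyond 0.5 on the log2 scale, a ratio of 1.41. A gene value was the mean over at least 3 unexcluded probes in the open reading frame, and 4340 genes had one. LYS2 and MET15 had too few unexcluded probes to be counted here. SCS3, a gene of lipid metabolism at the endoplasmic reticulum, was the 1 gene at -0.5 or lower, or 0.023%. CRG1, a methyltransferase gene, and YPR172W, named after its value was seen, were the 2 genes at 0.5 or higher, or 0.0461%. SCS3 did not reach -0.5 on raw foreground minus background, with the trend in signal level removed, or against the Nup170 wild-type library alone. Leaving out the library labelled sir4∆ gave 2 lower genes, SCS3 and HTC1, and 1 higher gene, CRG1. At 0.3 there were 39 lower genes, or 0.899%, and 8 higher genes, or 0.184%.

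The spread was wider for Nup157 than among the Nup170 libraries. The SD of the gene difference was 0.10 for the Nup157 library against the mean of all 3 Nup170 libraries. It was 0.097 in the first hybridisation alone and 0.136 in the second, with 31 and 125 genes at -0.3 or lower. On the mean of both hybridisations the SD was 0.0618, 0.0497 and 0.0467 for the Nup170 libraries labelled wild type, sir4∆ and yku70∆. Each of these was set against the mean of the other 2. At -0.3 or lower these gave 1, 1 and 2 genes, and at 0.3 or higher 10, 1 and 0 genes. SIR4 was the 1 gene past -0.5, in the library labelled sir4∆.

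**Figure D4:**
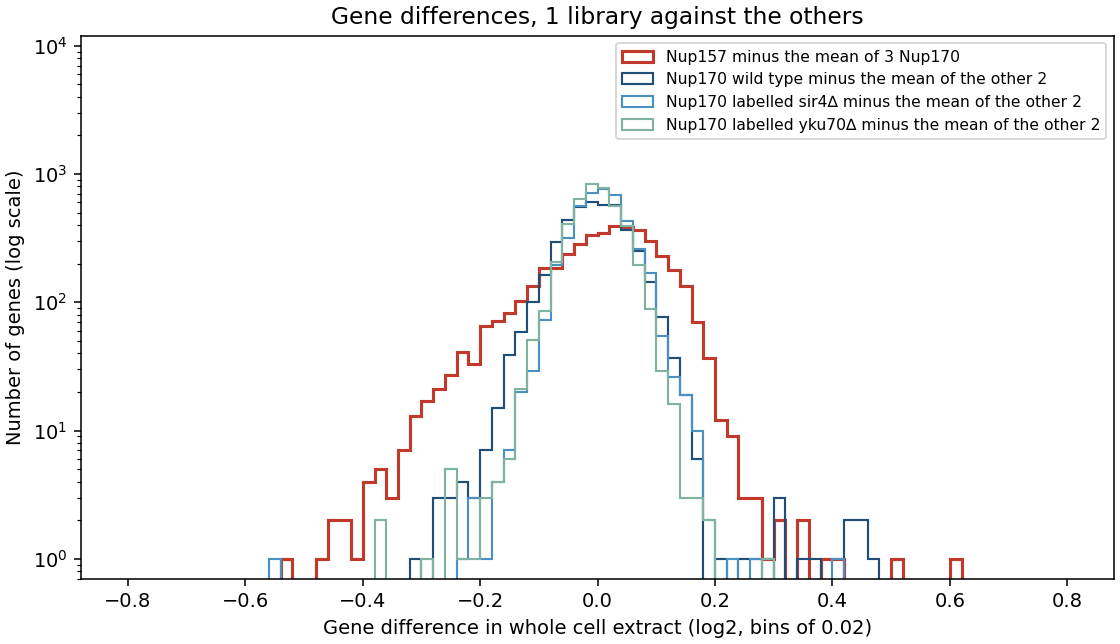
Numbers of genes (log scale) by difference in whole cell extract on the log2 scale, in bins of 0.02, for the Nup157 library against the mean of the Nup170 libraries and for each Nup170 library against the other 2. The Nup157 distribution is the widest, with an SD of 0.10 against 0.0467 to 0.0618.

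The higher calls came from isolated bright spots. In all, 12 positions differed by more than 1, and 11 of these were bright in the second Nup157 hybridisation alone and 1 in the first alone. The CRG1 probe at 679 bp was at 0.09 in the first hybridisation and 3.41 in the second, against -0.07 to 0.06 in the Nup170 libraries. CRG1 as a gene differed by -0.05 in the first hybridisation and 1.28 in the second, and its median over probes was 0.05. YPR172W, with a difference of 0.51, had 2 of 4 probes above 0, and a median of 0.02. RTP1, an import factor for RNA polymerase II, stood at 0.36 through a probe that read -0.90 in the first hybridisation and 3.79 in the second. Without positions whose 2 readings were more than 2 apart in any library, chosen after seeing the data, no gene remained at 0.5 or higher and SCS3 remained the 1 lower gene.

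The lowest genes named here were low in both hybridisations. They were also low at every probe, which the rule that named them required. SCS3 was at 0.42 in the Nup157 library, against 0.91, 0.99 and 0.95 in the Nup170 libraries labelled wild type, sir4∆ and yku70∆, a difference of -0.50 in the first hybridisation and -0.55 in the second. HTC1 was at 0.25 in the Nup157 library and at 0.67 to 0.77 in the Nup170 libraries, a difference of -0.48. The level of both genes with Nup157 lay below every Nup170 library. All 39 genes at -0.3 or lower were negative in both hybridisations and below every Nup170 library, which the cutoff on their difference favours. Of all genes with a gene value, 1356, or 31.2%, also lay below every Nup170 library. The low genes were mostly bright ones: 38 of the 39 lay above the median level in all Nup170 libraries, and 22 did in the Nup157 library. The difference fell with signal level, to a median of -0.05 in the brightest class of positions. With that trend removed, no gene reached -0.5. Whether the trend accounts for the 39 genes was not tested.

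The remaining genes among the 10 lowest whose probes all had one sign came from varied functions. NAT4, a histone acetyltransferase, and SNF6, a subunit of the SWI/SNF remodelling complex, both differed by -0.45. RRN5, a transcription factor of RNA polymerase I, ADO1, adenosine kinase, and MRPL4, a mitochondrial ribosomal protein, were at -0.42. PHO4, the transcription factor of phosphate starvation, was at -0.40, YKR041W at -0.39 and PUT4, the proline permease, at -0.38. PUT4, with the most probes of the 10 (6), was at 0.26 in the Nup157 library and 0.58 to 0.71 in the Nup170 libraries.

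Among the 10 highest genes on the same rule, CRG1 and RTP1 have been described. COS12, a subtelomeric gene, differed by 0.34, BRX1, of ribosome assembly, by 0.31 and ISC10, a meiotic gene, by 0.30. BRX1 gave 0.07 in the first hybridisation and 0.56 in the second. ATG17, a scaffold of autophagy, was at 0.28, RTC2, a vacuolar membrane protein, at 0.27, and OAZ1, the ornithine decarboxylase antizyme, and YCL002C both at 0.26. The mitochondrial reading frame Q0255 was at 0.25, and 5 of its probes, marked ones included, had a reading at blank level. ATG17 was at -0.04 in the Nup157 library and -0.37 to -0.29 in the Nup170 libraries, with 0.26 and 0.30 in the first and second hybridisations.

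The ChIP channel of the same libraries went the other way at the low genes. All 39 genes at -0.3 or lower in the whole cell extract were above 0 in the ChIP channel, against 53.3% of all 4340 genes. SCS3 differed by 0.43 there, HTC1 by 0.67 and MRPL4 by 0.65. Of the 8 genes at 0.3 or higher, 5 were below 0 in the ChIP channel, against 2027 of all 4340 genes. RTC2, OAZ1 and YCL002C, which lay below 0.3 in whole cell extract and among the 10 highest by the rule above, differed by -0.58, -0.60 and -0.59. These were the lowest ChIP values of those 10, and the others ran from -0.25 at ISC10 to 0.01 at BRX1. Across the 4340 genes, which share libraries, arrays and spots between the channels and are not independent replicates, the 2 differences correlated at -0.77 (Pearson) and -0.80 (Spearman). The same correlations among the Nup170 libraries, each against the other 2, were 0.24, -0.02 and 0.40 (Pearson) for those labelled wild type, sir4∆ and yku70∆. None of these 4340 genes reached -0.3 in both channels or 0.3 in both. LYS2, MET15 and HMRA1, which moved in the same direction in both channels, had too few unexcluded probes to be among them. A ratio of ChIP over whole cell extract holds the whole cell extract difference with its sign turned. How much of such a ratio either channel made up was not tested.

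**Figure D5:**
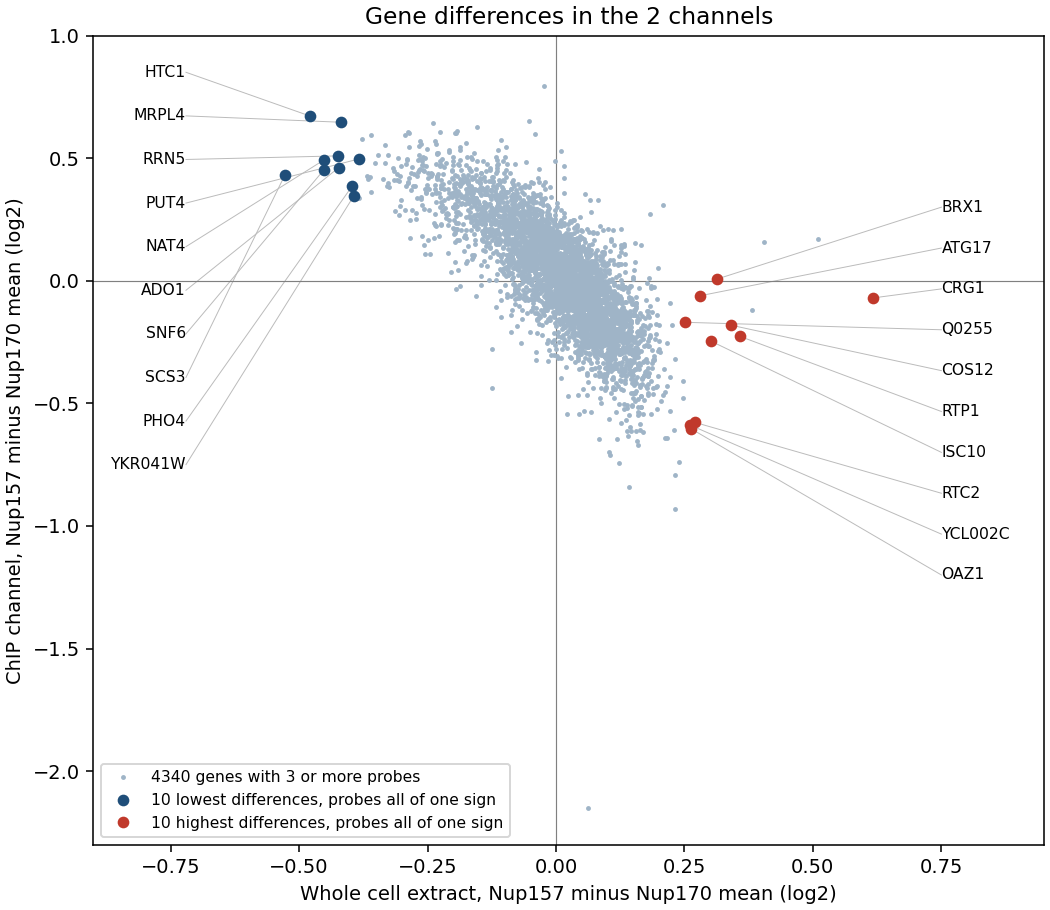
Gene difference in the ChIP channel against that in whole cell extract, both Nup157 minus the mean of the Nup170 libraries on the log2 scale, for 4340 genes with 3 or more probes; named points are the 10 lowest and 10 highest whole cell extract differences. The lowest genes lie between 0.34 and 0.67 in the ChIP channel and all but BRX1 of the highest lie below 0; the far point at the bottom is URA3, which no library read above blank in whole cell extract.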

How the data were processed

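Each library's deposited probe table was used. Per the file headers it holds foreground and background intensity of both channels in 2 hybridisations and a normalised intensity, with a 0 or 1 exclusion mark, a value of another kind (other), set by the authors. Agilent Feature Extraction is named in the submitters' processing notes, with no version. The mark fell exactly on probes with a normalised intensity at or below 0 in some channel. These numbered 246 in the Nup157 library and 234, 227 and 233 in the Nup170 libraries labelled wild type, sir4∆ and yku70∆. The mark removed only part of the probes of genes at blank level. In the Nup157 library it took 15 of 16 probes at LYS2 and 1 of 4 at URA3. Blank-level calls, and the bounds for LYS2 and MET15, therefore used all data probes, and every other difference used unmarked probes alone.

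Normalised whole cell extract intensity was raised to a floor (the lowest value among probes above blank level, at least 1/64 of the median), taken as log2 and centred on each hybridisation's median. Hybridisations were averaged and the mean of the 3 Nup170 libraries was subtracted. The 4 first hybridisations shared 1 slide, so the first hybridisation alone gives the within-slide value. No source used here names the slide of the second. Gene names came from RefSeq, which matched 5478 of 5493 loci. The rule named genes at blank level in some libraries, the labelled deletions, the 10 lowest and 10 highest genes with at least 3 probes of one sign, and the members of the lists. Members, lists and rule were chosen with earlier results of these data known. The gene differences were tested on simulated data with set shifts. The blank-level calls and the bounds for LYS2 and MET15 were not tested in this way. Python 3 with numpy and pandas was used. With 1 library in each group no test was run. The series-wide value table was not used.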

Additional observations from a re-analysis of the deposited data

Results flagged for a closer look

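URA3 was not above blank in any whole cell extract reading of the 4 libraries, yet it gave signal in the ChIP channel of the Nup170 libraries, data outside the comparison of strain DNA. In the Nup157 library 2 of 8 ChIP readings at its 4 probes were above blank, with a median foreground of 4085. In the Nup170 libraries 24 readings were above blank, which is 8 of 8 in each. Their median foreground was 13188 in the wild-type library, 10879 in the library labelled sir4∆ and 15638 in the library labelled yku70∆. LYS2, at blank level in the Nup157 whole cell extract, had 0 of 32 ChIP readings above blank there, and LEU2 had 4 of 8 in the Nup157 library and 3 to 7 of 8 in the Nup170 libraries.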

How the results depend on the processing

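No paired analysis was possible because each group was 1 library; the first hybridisations, which shared 1 slide, were compared alone as values with no test. LYS2 as a gene missing from the Nup157 library and MET15 as a gene missing from at least 1 Nup170 library were called in each hybridisation alone, with a blank level of mean plus 5 SDs, in the ChIP channel and without any 1 Nup170 library. In the ChIP channel the library labelled sir4∆ had 1 of 6 MET15 readings above blank. A mitochondrial reading frame, BI3, Q0255 or both, joined LYS2 or MET15 at times: the first hybridisation alone gave 3 genes missing from a Nup170 library, the second alone 2 missing from the Nup157 library, and the 5 SD level 2 missing from a Nup170 library. With 500 bp upstream included both counts were 0, since the probes at -450 bp of LYS2 and -476 bp of MET15 were read in all libraries. The LYS2 difference, a bound of -3.37, was -2.09 on raw foreground minus background, -4.99 with no floor, -3.95 with a floor at 1/16 of the median and -2.50 at the 5 SD level. That of MET15, 3.63, was 2.20 on raw signals, 4.15 with the 1/16 floor, 2.73 at the 5 SD level, 2.88 with 500 bp upstream and 3.83 in the ChIP channel. These bounds move with the floor by construction. The a-type difference of -0.80 was -0.63 on raw signals, -0.89 after quantile normalisation, -0.69 as a median, -0.87 against the Nup170 wild-type library alone, -1.32 in the ChIP channel and -0.22 over all 7 probes annotated to HMRA1, 4 of them downstream of it, the last added after seeing the data. No probe gave a value for alpha-type sequence. Lower genes numbered 2 and 5 in the first and second hybridisations alone, 0 on raw signals, 0 with the intensity trend removed, 2 with no floor, 2 with excluded spots kept, 2 by median, 2 with upstream probes, 39 at 0.3, 0 at 1 and 52 in the ChIP channel. With excluded spots kept the lower genes were LYS2 and SCS3, and the 3 higher genes were CRG1, MET15 and YPR172W. Against the Nup170 wild-type library alone the 1 lower gene was HTC1 in place of SCS3. Leaving out 1 Nup170 library gave 1 to 2 lower and 1 to 2 higher genes. Higher genes numbered 0 and 6 in the first and second hybridisations, 1 on raw signals, 0 after quantile normalisation, 0 by median, 0 with upstream probes, 8 at 0.3, 0 at 1, 1 against the Nup170 wild-type library, 48 in the ChIP channel and 0 without positions whose readings differed by over 2. The mitochondrial difference turned to -0.044 in the first hybridisation, -0.024 on raw signals, -0.033 after quantile normalisation, -0.025 with the trend removed and -0.059 in the ChIP channel. Many of its positions lie at the floor, so these values follow the floors as well. The outermost 20 kb were at 0.037 with the trend removed and -0.051 in the ChIP channel. Of 138 recomputed values 87 kept their direction and stayed within the spread between libraries or hybridisations (counts within 1.5 times). The cause of the changes not named here was not tested. Signal over background limits calls near blank level, where most mitochondrial positions lie.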

Other observations

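Next to COS12, at the left end of chromosome 7, the libraries did not divide by tagged protein. Over 11 positions from 876 to 3758 that were above blank in all readings, the centred mean was -0.34 in the Nup157 library and -0.42 in the library labelled sir4∆, against -0.81 in the Nup170 wild-type library and -0.82 in the library labelled yku70∆. At all 11 positions the Nup157 library and the library labelled sir4∆ were each above both of the others. The 2 hybridisations gave -0.36 and -0.31 in the Nup157 library and -0.42 and -0.42 in the library labelled sir4∆. The Nup157 library exceeded the mean of the wild-type and yku70∆-labelled libraries by 0.48, and the library labelled sir4∆ exceeded it by 0.40. The stretch lies within the window of highest median difference, which favours a high Nup157 value there. Some other ends divided likewise in their outermost 5 kb, such as the right ends of chromosomes 1 and 8. Others did not, such as the left end of chromosome 11.

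The class of a position also went with the difference, in part through 1 hybridisation. Positions downstream of genes on both sides had a median difference of 0.10, with 0.02 in the first hybridisation and 0.19 in the second. Divergent promoters had -0.05, with -0.09 and -0.02, and promoters had 0.0016, with -0.06 and 0.06. Positions inside genes had 0.03 in each.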
